A study of Homo sapiens with 16 samples.

Results

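The regions described here had an ATAC-seq peak in 3 of 4 peak lists of MDA-MB-231 cells and none in the list of ancestral cells on soft gel. They were chosen by those peak calls. Peaks of the 4 lists on chromosomes 1 to 22 were merged wherever they shared at least 1 bp, and a region was kept when ancestral cells on stiff gel, selected cells on soft gel and selected cells on stiff gel each had a peak there and ancestral cells on soft gel had none. Of 161185 merged regions, 4837 met this rule. In 413 of them the peak list of ancestral cells on soft gel skipped a peak number at that place, so presence could not be read, and they were removed. The remaining 4424 regions made up 2.74% of all merged regions.

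MDA-MB-231 is a human breast adenocarcinoma line, labelled wild type in every group. Cells grew on polyacrylamide gels coated with type I collagen, either soft (Young's modulus 1 kPa) or stiff (308 kPa). Ancestral cells on soft gel, ancestral cells on stiff gel, selected cells on soft gel and selected cells on stiff gel had 4 samples each. Selection was passaging on gels of 1 stiffness for 75 days; the labels do not say on which gel the selected cells assayed on stiff gel had been selected, nor whether the samples of a group were separate cultures. Each group has 1 deposited peak list, so no value per sample, no replicate spread and no test between groups could be had, and every comparison below is a description of 4 lists. Intervals are exact binomial (Clopper-Pearson) 95% intervals; they cover counting error only, and neighbouring regions are not independent.

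ATAC-seq cuts DNA with a transposase wherever chromatin is open, so peaks mark promoters, enhancers and other sites not packed into nucleosomes. Cells sense the stiffness of their matrix through integrins, focal adhesions and actomyosin, and transcription regulators such as YAP, TAZ and the SRF cofactors MRTF carry that signal to the genome. On soft matrix adherent cells usually spread less and hold less tension. A missing peak says that the signal did not pass the peak caller's threshold in that list, not that the chromatin was closed.

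The promoters below belong to genes whose annotated start lay under one of these regions, and they show how unlike in sequence such starts were. Each line is the 250 bases before the start of transcription on the gene's own strand (RefSeq, GRCh38.p14), 5′ to 3′. Capitals mark matches to any of 9 motifs searched on both strands. They were the GC box (letters GGGCGG), the CCAAT box, the ETS core spelled CCGGAAG, the E-box spelled CACGTG and the CRE with the letters TGACGTCA. The others were the AP-1 site written TGANTCA, the TEAD site with the letters GGAATG, the TATA box (letters TATAAA) and the CArG box that SRF binds, given by its name. No motif contains another, though matches may share bases. GOLGA6A, TNS3 and RBFOX3 were named by rule. BCL11B and TENM3 were added after the values were seen, because they were the next strongest regions over a start.
GOLGA6A: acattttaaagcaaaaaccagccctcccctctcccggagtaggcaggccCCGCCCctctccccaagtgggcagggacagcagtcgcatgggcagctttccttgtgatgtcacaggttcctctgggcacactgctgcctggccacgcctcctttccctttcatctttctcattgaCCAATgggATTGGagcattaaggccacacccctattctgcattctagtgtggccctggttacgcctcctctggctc
TNS3: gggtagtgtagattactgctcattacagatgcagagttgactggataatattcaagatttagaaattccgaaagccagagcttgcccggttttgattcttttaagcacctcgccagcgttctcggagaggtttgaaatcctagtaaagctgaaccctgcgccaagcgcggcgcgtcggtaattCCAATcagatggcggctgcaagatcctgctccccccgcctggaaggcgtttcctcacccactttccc
RBFOX3: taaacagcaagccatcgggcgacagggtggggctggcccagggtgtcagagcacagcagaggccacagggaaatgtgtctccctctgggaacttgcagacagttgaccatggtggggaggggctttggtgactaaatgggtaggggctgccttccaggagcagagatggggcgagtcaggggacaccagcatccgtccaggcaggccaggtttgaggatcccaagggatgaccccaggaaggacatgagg
BCL11B: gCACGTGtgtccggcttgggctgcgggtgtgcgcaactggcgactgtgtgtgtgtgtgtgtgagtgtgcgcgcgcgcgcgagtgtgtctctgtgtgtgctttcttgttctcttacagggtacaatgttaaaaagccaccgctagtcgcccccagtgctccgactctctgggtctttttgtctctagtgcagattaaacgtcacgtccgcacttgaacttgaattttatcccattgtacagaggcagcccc
TENM3: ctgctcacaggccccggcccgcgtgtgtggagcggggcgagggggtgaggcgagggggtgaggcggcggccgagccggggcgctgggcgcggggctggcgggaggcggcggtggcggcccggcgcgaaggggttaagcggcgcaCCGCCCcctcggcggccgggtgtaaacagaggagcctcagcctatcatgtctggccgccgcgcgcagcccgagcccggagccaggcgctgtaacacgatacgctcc

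The TENM3 stretch (chr4:182448766-182449015, plus strand) was 77.2% G and C with 35 CpG dinucleotides and held 1 GC box. At the other end, the TNS3 stretch (chr7:47537473-47537722, minus strand) was 51.2% G and C, held 14 CpG and had 1 CCAAT box. GOLGA6A (chr15:74082551-74082800, minus strand) held 1 GC box and 2 CCAAT boxes facing each other's strand. BCL11B (chr14:99272198-99272447, minus strand) held 1 E-box at the far end of the stretch, upstream of a run of alternating g and t. No motif of the 9 was in the stretch of RBFOX3 (chr17:79424749-79424998, minus strand), which had 4 CpG. That says only that these letters are not in this window. GOLGA6A belongs to a family of near-identical golgin genes, and how the authors treated reads that match several places is not given in the sources used here, so its values are uncertain.

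Over these starts the values were as follows. TENM3, a teneurin that links cell surfaces, had a fold enrichment over background of 11.5 in ancestral cells on stiff gel, 4.08 in selected cells on soft gel and 5.29 in selected cells on stiff gel. BCL11B, a zinc finger transcription factor best known from T cells, had 4.15, 5.87 and 6.47 in the same order. These starts sat far from the nearest peak in ancestral cells on soft gel, at 139916 bp for TENM3 and 47506 bp for BCL11B. TNS3, a tensin that ties integrins to actin, was weak in ancestral cells on stiff gel at 1.88, against 3.45 and 3.09 in the selected lists, and 2 of its 3 listed starts lay under regions present in all 4 lists. RBFOX3, the neuronal splicing regulator also known as NeuN, had 2.12, 3.32 and 3.60 over the start shown.

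Of the 74742 regions with a peak in the other 3 lists, 5.92% (5.75 to 6.09) had none in ancestral cells on soft gel. The same count for the other lists was 3.20% for ancestral cells on stiff gel (2323 regions), 6.45% for selected cells on soft gel (4845) and 4.14% for selected cells on stiff gel (3038). The share for ancestral cells on soft gel was thus the second highest of the 4. Ancestral cells on soft gel also had the shortest list, with 109578 peaks against 116043, 129755 and 122591. When every list was held to its 109578 peaks of lowest q value, 2703 regions met the rule and the share became 3.83%, beside 3.67% for ancestral cells on stiff gel, 7.08% for selected cells on soft gel and 3.98% for selected cells on stiff gel. At equal list length the gap between ancestral cells on soft and on stiff gel was therefore 3.83% against 3.67%. The count was thus 4424 with full lists and 2703 with equal ones. How far sequencing depth, which is unknown, set the full count was not tested.

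These were weak peaks in ancestral cells on stiff gel, and less so in the selected lists. Their median fold enrichment was 2.403 in ancestral cells on stiff gel, 3.04 in selected cells on soft gel and 3.09 in selected cells on stiff gel, whereas regions present in all 4 lists had medians of 13.2, 6.49 and 7.93. Over whole lists the median was 6.27, 3.59 and 4.19, and the medians of the regions stood at percentiles 11.8, 39.5 and 33.7 of their lists. At or above the list median were 85, 1088 and 669 of the regions. From the 10th to the 90th percentile the regions spanned 2.03 to 4.00, 2.42 to 4.28 and 2.42 to 4.63, and the highest single values were 13.4, 13.5 and 13.2. Ancestral cells on soft gel had no listed peak below a fold enrichment of 1.85. In ancestral cells on stiff gel 12.3% of the regions (546) reached at least 2 times that value, as did 20.4% (904) and 24.3% (1076) in the selected lists. Median pileup, the number of overlapping fragments at the summit, was 50, 43 and 41, and the median −log10 q was 6.67, 8.76 and 8.61.

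**Figure D1:**
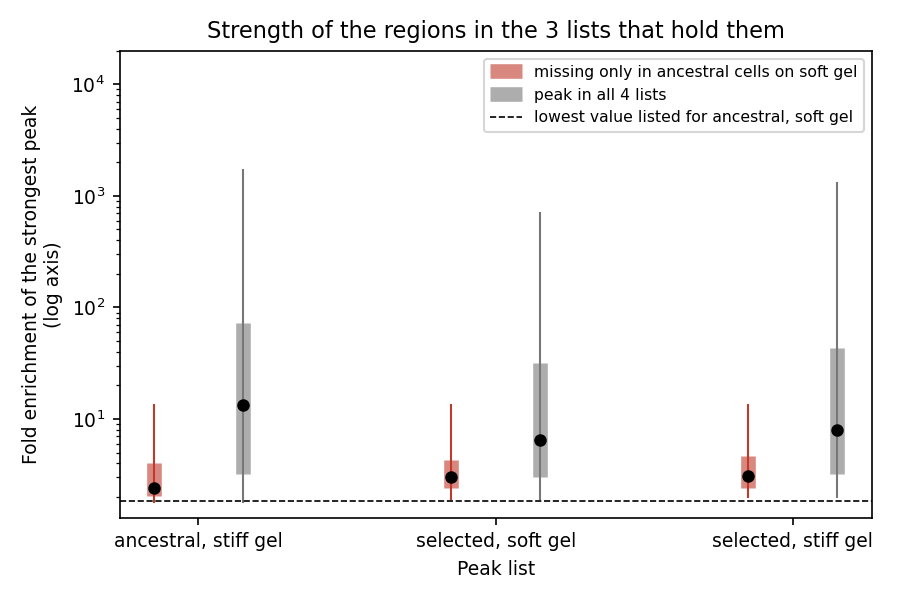
Fold enrichment (log axis) of the strongest peak per region in the 3 lists that hold it, for the 4424 regions missing only in ancestral cells on soft gel (red) and the 70318 regions in all 4 lists (grey); dots are medians, thick bars the 10th to 90th percentile and thin lines the full range. The red medians of 2.403, 3.04 and 3.09 lie below the grey medians of 13.2, 6.49 and 7.93, close to the dashed line at the lowest value listed for ancestral cells on soft gel, 1.85.

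The rule picks regions without a peak in 1 ancestral list, so the order of the other lists in them is given as a description only. Selected cells on soft gel had a higher fold enrichment than ancestral cells on stiff gel in 72.3% of them (70.9 to 73.6), and selected cells on stiff gel in 75.6%. In regions of all 4 lists those shares were 14.2% and 14.8%. The same order was found in the medians of regions missing only in ancestral cells on stiff gel, with 2.31 in ancestral cells on soft gel and 3.04 and 2.94 in the selected lists. Median peak length was 857 bp in selected cells on soft gel and 749 bp in selected cells on stiff gel, against 443 bp in ancestral cells on stiff gel. Merged, they had a median width of 1118.5 bp, near the 1181 bp of regions missing only in ancestral cells on stiff gel. Regions missing only in selected cells were narrower, at 625 bp on soft gel and 687.5 bp on stiff gel.

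At the edge of the rule, 211 regions (4.77%) had a −log10 q below 3 in at least 1 of the lists that held them, with median fold enrichments of 1.88, 2.56 and 2.57. Just outside it, 298 regions had peaks in all 4 lists but a −log10 q below 3 in ancestral cells on soft gel. Those had a median of 2.02 in ancestral cells on soft gel and 2.31, 3.25 and 3.23 in the other lists. Inside the rule, 479 regions (10.8%) reached a −log10 q of 10 or more in all of the lists holding them, and 1658 (37.5%) reached it in none.

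The share of regions missing in ancestral cells on soft gel dropped steeply with strength. Strength here is the lowest fold enrichment among the other 3 lists. Below 2, 61.7% of regions were missing (407 of 660). From 2 to 2.5 the share was 35.1%, from 2.5 to 3 it was 13.3%, and from 3 to 4 it was 4.08%. Of the 31998 regions at 7 or more, 1 was missing. Ancestral cells on stiff gel gave the same shape at lower values (54.1%, 24.5%, 6.21% and 1.03% over the first 4 bins). The list of selected cells on soft gel differed in shape, with 8.23% missing below 2, a highest share of 20.3% from 2.5 to 3, and 17.3% from 3 to 4.

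**Figure D2:**
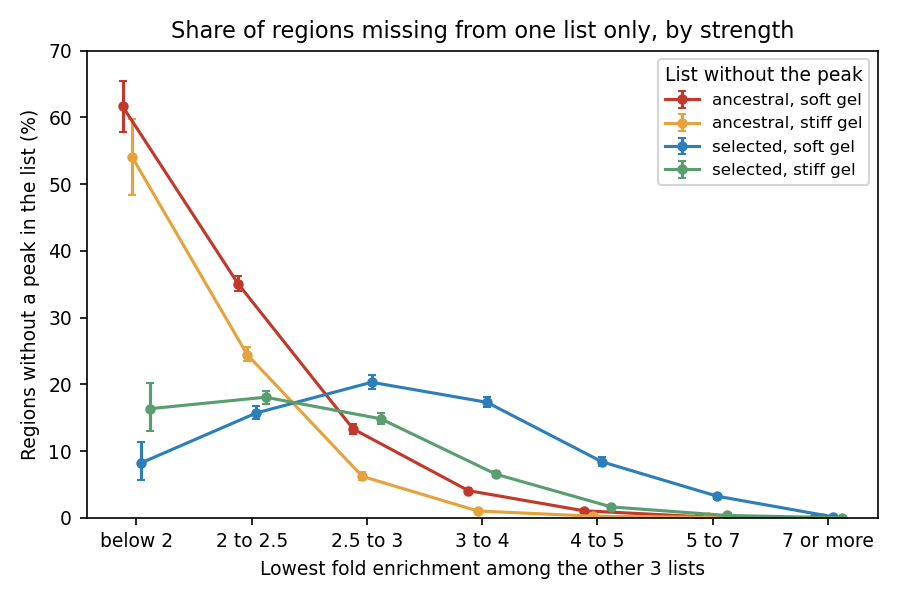
Percent of regions without a peak in one list among those with a peak in the other 3, by the lowest fold enrichment in those 3; lines are the 4 lists and bars are 95% exact binomial intervals. For ancestral cells on soft gel the share goes from 61.7% in the weakest bin to 1.06% at 4 to 5, while for selected cells on soft gel it is highest, 20.3%, at 2.5 to 3.

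The regions mostly had a peak of ancestral cells on soft gel not far away. The nearest one lay at a median of 2679.5 bp, and at more than 10 kb for 16.5% of the regions. Regions missing only in another list were measured to the peaks of that list. For those missing only in ancestral cells on stiff gel the median was 3181 bp and the share beyond 10 kb 21.9%. For selected cells on soft gel they were 6061 bp and 38.5%, and for selected cells on stiff gel 5117.5 bp and 33.6%. Within 500 bp, ancestral cells on soft gel had a peak for 5.31% of the regions missing there. The regions also came in company. After one such region, the next region with a peak in the other 3 lists was missing too in 11.9% of cases. After a region that ancestral cells on soft gel held, it was missing in 5.55%. Regions missing only in another list did the same. These shares were 12.5% against 2.89% for ancestral cells on stiff gel and 10.7% against 6.15% for selected cells on soft gel. For selected cells on stiff gel they were 8.85% against 3.94%.

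The 10 strongest of the regions, one per nearest gene, lay mostly inside or near genes of unrelated function. At chr22:47170604-47171056, inside TBC1D22A, a gene of the TBC family that acts on Rab GTPases, fold enrichment was 7.73 in ancestral cells on stiff gel, 13.5 in selected cells on soft gel and 11.6 in selected cells on stiff gel, with pileups of 163, 194 and 157. It was the single region above 7 in all of its lists. The nearest peak of ancestral cells on soft gel was 5295 bp away. A region 10.7 kb from SUCLG2, which encodes a subunit of the GTP-forming succinyl-CoA synthetase of the citric acid cycle, had 6.88, 6.70 and 7.86 (chr3:67349397-67350070). Inside TRIP11, a Golgi tethering protein gene, the values were 11.3, 6.56 and 6.83 (chr14:91980067-91980663). These regions were strong in all of the lists that held them.

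A region 39.4 kb from PRRX1, a homeobox factor of mesenchymal cells, had 7.96, 6.22 and 7.20 (chr1:170623105-170623632), and the nearest peak of ancestral cells on soft gel lay 40723 bp away. The GOLGA6A start had 9.19, 6.91 and 6.10. CLIP2, which links membranes to microtubule ends, held a region with 7.87, 5.87 and 5.73 (chr7:74346401-74346906). EDDM13, a gene first found in epididymis, held one with 6.31, 6.42 and 6.02 (chr19:56309559-56310032), and LOC124900275 one with 8.86, 6.01 and 5.66 (chr9:129509306-129510003). The last pair of the 10 strongest lay far from any protein-coding gene: chr13:47420548-47421032 (5.98, 6.70 and 6.47) and chr16:64161399-64161884 (5.94, 6.91 and 5.88), at 522 kb and 782 kb. The annotation used gives gene spans and starts but no exons, so exon and intron positions are not stated.

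Most regions lay inside genes. The middle fell within a protein-coding gene for 61.7% of them (60.3 to 63.2), against 51.7% of regions in all 4 lists, 51.2% of those missing only in ancestral cells on stiff gel, 42.5% for selected cells on soft gel and 38.7% for selected cells on stiff gel. Few were remote: 5.22% lay over 100 kb from a gene, against 13.1% of regions in all 4 lists. Within 1 kb of a protein-coding start there were 228 of 4276 regions, or 5.33% (4.68 to 6.05; chromosome 8 not counted), against 15.3% of regions in all 4 lists. The share at starts was 3.30% for regions missing only in ancestral cells on stiff gel. It was 3.21% for selected cells on soft gel and 1.99% for selected cells on stiff gel. Strength moves with this, and the order turned round among regions with a lowest fold enrichment of 2 to 3. There 5.92% (5.15 to 6.78) of the missing and 4.37% (3.98 to 4.78) of those in all 4 lists were at starts. At that strength the share inside genes was still 63.0% against 49.9%.

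Starts under these regions held the ETS motif less often than starts open in all 4 lists, but not at matched strength. Of the 161 start windows that a region touched (250 bases before to 50 after the start, 143 genes), 3.11% (1.02 to 7.10) held the ETS core CCGGAAG, against 17.99% of the 13386 windows touched by regions of all 4 lists and 12.9% of all 21156 windows. A GC box was in 54.7%, against 70.2% and 56.6%. The AP-1 site was in 5.59%, against 4.91% and 6.08%, and the TEAD site in 11.2%, against 10.8% and 12.2%. At matched strength (lowest fold enrichment 2 to 3) the ETS shares were 3.65% for missing and 4.28% for shared windows, and the GC box shares 54.0% and 52.9%, so the motif difference was not seen there. Median CpG per 300-base window was 15 against 26 in windows under regions of all 4 lists, and 14 against 13 at matched strength.

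Some of the genes with a start under a region are given here as examples; they were named after their values were seen, stand for no theme, and lie beside many others such as CTBP2, BRD1 and SLC19A1. DGKI, a diacylglycerol kinase, had fold enrichments of 3.53 in ancestral cells on stiff gel, 7.25 in selected cells on soft gel and 7.35 in selected cells on stiff gel at its start. PRDM12, a factor of pain-sensing neurons, had 2.83, 5.94 and 5.14. LTA, the cytokine lymphotoxin alpha, had 2.87, 4.42 and 3.75. FCER2, the low-affinity IgE receptor, had 2.83, 2.90 and 3.23, and CD72, a B-cell receptor partner, 2.69, 2.97 and 3.23. Protocadherin beta genes appeared more than once: PCDHB3 had 3.91, 3.94 and 3.67, and PCDHB8 3.02, 4.28 and 2.87. Protocadherin beta genes resemble each other closely in sequence, so their counts are uncertain. For 29 of the 143 genes an annotated start window was also touched by a region of all 4 lists, mostly at another start of the gene. Of the 143 genes, 49 had more than 1 listed start and 94 had 1, so most could have no other. Of the genes on the lists below, SMAD3, COL6A2, RBFOX3 and TNS3 had a region within 1 kb of a start; COL6A2, a collagen VI chain, had 2.21, 3.25 and 3.82.

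The regions were spread unevenly over chromosomes. On chromosome 19, 10.2% (9.29 to 11.2) of regions with a peak in the other 3 lists were missing in ancestral cells on soft gel, and 9.70% on chromosome 17, 8.08% on 22, 7.89% on 14 and 7.60% on 16. The lowest shares were 1.99% (1.29 to 2.92) on chromosome 13 and 3.13% on 18. At a lowest fold enrichment of 2 to 3, where 24.2% of all were missing, chromosomes 19, 16, 14, 17 and 22 had 36.2%, 36.2%, 36.0%, 35.2% and 34.9%, and 18, 13 and 6 had 8.21%, 12.1% and 13.5%. When peaks needed a −log10 q of 10 in every list, chromosomes 19 and 17 had 5.64% and 4.71%, and 13 and 18 had 1.53% and 0.687%. With every list held to 54789 peaks, the strongest of each, chromosomes 19 and 17 had 2.07% and 1.71%, 13 had 2.11% and 18 had 0.927%, so 19 and 17 were then no higher than 13.

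**Figure D3:**
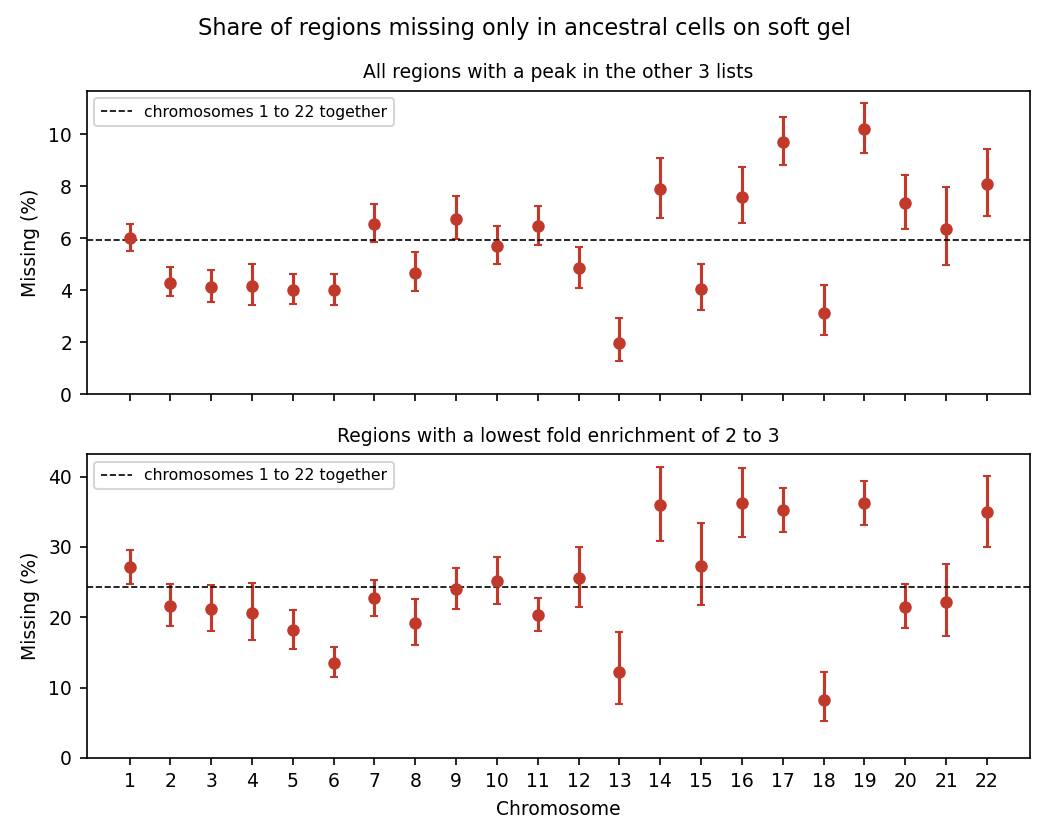
Percent of regions missing only in ancestral cells on soft gel among regions with a peak in the other 3 lists, by chromosome, for all regions (top) and for regions with a lowest fold enrichment of 2 to 3 (bottom); bars are 95% exact binomial intervals. Chromosomes 14, 16, 17, 19 and 22 lie above the dashed shares of all chromosomes (5.92% and 24.2%) in both panels, and 13 and 18 below.

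Regions near chromosome ends were missing more often than those in the interior, a split made after the data were seen. Distance was taken to the nearer of the chromosome's outermost peaks, or to the long-arm one on acrocentric chromosomes. Within 2 Mb, 10.9% (10.0 to 11.9) were missing in ancestral cells on soft gel, and past 40 Mb 4.18% (3.94 to 4.42). Ancestral cells on stiff gel ran the same way at lower shares, from 5.79% to 2.43%. Both selected lists ran the other way, from 3.17% to 7.75% on soft gel and from 2.32% to 5.11% on stiff gel. At a lowest fold enrichment of 2 to 3 ancestral cells on soft gel had 29.8% within 2 Mb, 33.0% from 2 to 5 Mb and 18.7% past 40 Mb. In the 54789 strongest peaks of each list the shares for ancestral cells on soft gel were 1.95% within 5 Mb and 1.74% past 40 Mb, and those for ancestral cells on stiff gel turned round, at 1.77% and 2.19%. The removal of regions at skipped numbers also bears on the selected list on soft gel: it had 3.75% within 5 Mb and 7.75% past 40 Mb, but 7.30% and 8.28% when those regions were kept.

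**Figure D4:**
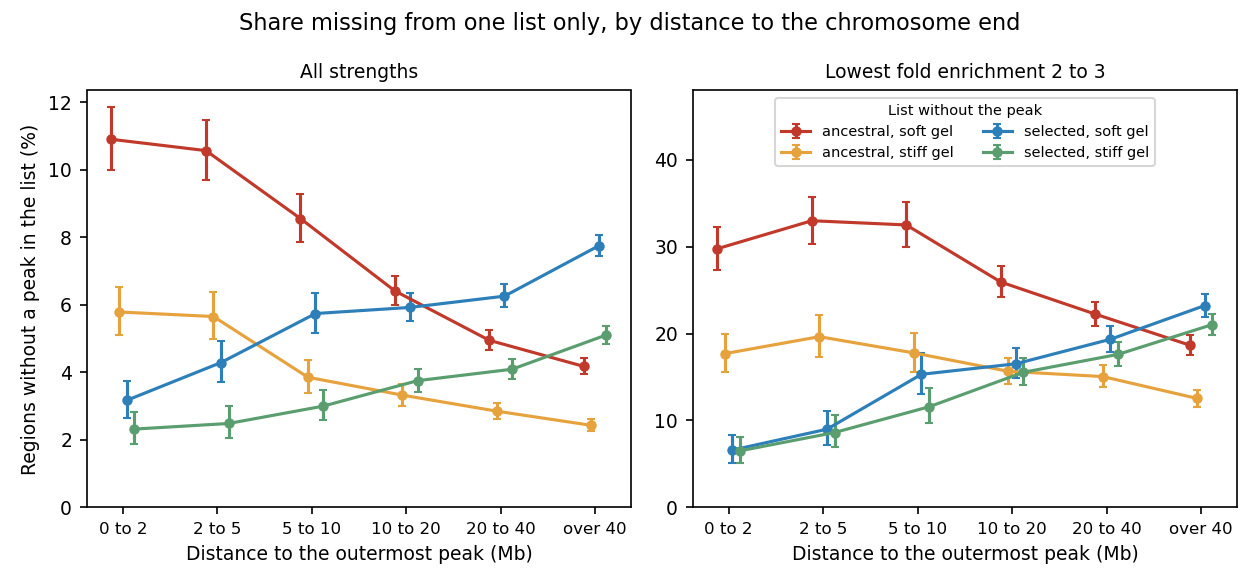
Percent of regions without a peak in one list among those with a peak in the other 3, by distance to the chromosome's outermost peak in Mb, for all strengths (left) and a lowest fold enrichment of 2 to 3 (right); bars are 95% exact binomial intervals. In the left panel both ancestral lists go down away from the chromosome end, from 10.9% to 4.18% on soft gel, and both selected lists go up; in the right panel the ancestral line on soft gel is highest at 2 to 5 Mb (33.0%).

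In windows of 10 Mb with at least 50 such regions, the highest share was 19.5% (25 of 128), at 130 to 140 Mb on chromosome 12. It was 18.4% at 240 to 250 Mb on chromosome 2 and 17.3% at 100 to 110 Mb on chromosome 14. In the chromosome 14 window the other lists were missing in 4.64%, 1.84% and 0.743%. Of 282 windows, 25 were over 10%, while 13 had none missing. Those 25, picked by their share, held 1414 of the 4424 regions and 11482 of the 74742 with a peak in the other 3 lists.

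Assigned to the nearest protein-coding gene within 100 kb, 4193 of the regions fell to 2945 genes, which is 18.8% of the 15643 genes with any region in the other 3 lists. Most of these genes had a single one; 763 had 2 or more and 47 had 5 or more. RBFOX3 had the most, 12 of its 36 regions. Their fold enrichment was 1.93 to 3.20 in ancestral cells on stiff gel and 2.56 to 5.32 in selected cells on soft gel. SORCS2, a sorting receptor of neurons, had 10 of 55, KIF1A, a kinesin of axonal transport, 9 of 18, and SHANK2, a scaffold of the postsynaptic density, 7 of 46. FBRSL1 had 9 of 19, CBFA2T3, a transcriptional corepressor, 8 of 18, and LHPP, a phosphatase, 7 of 15. Regions missing only in ancestral cells on stiff gel numbered 6 at RBFOX3, 6 at SHANK2 and 1 at CBFA2T3. The other genes named here, SORCS2, KIF1A, FBRSL1 and LHPP, had 0. Over all protein-coding genes 6.42% of regions were missing only in ancestral cells on soft gel.

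Around these genes the share varied. It was taken within 5 Mb on either side, with the regions of the gene itself left out. Missing were 12.99% around RBFOX3, 12.9% around SORCS2, 12.0% around FBRSL1, 11.2% around CBFA2T3 and 9.82% around KIF1A. Around IQSEC1 it was 8.62%, around SHANK2 8.48% and around LHPP 7.36% (4.67 to 10.9). With equal list lengths RBFOX3 had 6 of 30, SORCS2 5 of 48, KIF1A 6 of 14, FBRSL1 6 of 16 and LHPP 6 of 14. At a −log10 q of 10 in every list they had 2 of 18, 2 of 27, 6 of 7, 5 of 10 and 0 of 6 in the same order. With the 54789 strongest peaks of each list, 1 of the 10 genes with the most regions still had any: COL5A1, with 1 of 19. Over all protein-coding genes 1.80% of regions were missing at that setting. Regions of short genes were missing a little more often, 7.25% for genes under 20 kb against 4.87% for genes over 200 kb.

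Among genes of adhesion and matrix, COL5A1 and VAV2 stood out by count. COL5A1, a chain of the fibrillar collagen V, had 9 of 51 regions missing, with fold enrichments of 2.12 to 2.69 in ancestral cells on stiff gel, 2.90 to 4.28 in selected cells on soft gel and 3.01 to 4.70 in selected cells on stiff gel. VAV2, which acts downstream of receptor and adhesion signals, had 9 of 28, with 1.84 to 2.69, 3.39 to 4.35 and 3.38 to 4.85. The genes lie close together on chromosome 9, where 12.7% and 12.6% of regions within 5 Mb of each were missing, its own regions left out. At equal list lengths COL5A1 had 8 of 48 and VAV2 had 3 of 20. With a −log10 q of 10 in every list COL5A1 had 8 of 34 and VAV2 0 of 11.

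For the lists of genes tied to stiffness sensing, the share missing was near the 6.42% of all genes. Focal adhesion and integrin genes had 19 of 267 regions (7.12%, 4.34 to 10.9), with regions at 8 of 26 genes. Beside VAV2, PTK2, the focal adhesion kinase, had 4 of 24, and the strongest of them had 3.35, 6.15 and 5.29. A further 4 regions at PTK2 were missing only in ancestral cells on stiff gel. Genes of the actin cytoskeleton or targets of SRF and MRTF had 16 of 197 (8.12%, 4.71 to 12.9). ACTN1, an actin crosslinker, had 4 of 18 and MYH9, the heavy chain of non-muscle myosin IIA, 3 of 22. YAP/TAZ-TEAD targets and partners had 13 of 272 (4.78%, 2.57 to 8.03). PTPN14, a phosphatase that binds YAP, had 3 of 16, the strongest 15.4 kb from the gene with 7.49, 4.01 and 4.78. TEAD1, a DNA-binding partner of YAP, had 2 of 24.

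Mechanosensitive channel genes had a higher share, 9 of 59 regions (15.3%, 7.22 to 27.0), at 6 of 13 genes. TRPV4, a cation channel, had 2 of 6, the stronger with 3.63, 3.80 and 3.97 inside the gene (chr12:109796648-109798555). PIEZO1, a stretch-gated cation channel, had 2 of 8, the stronger with 2.59, 4.01 and 4.19 (chr16:88718965-88724348), 849 bp from a peak of ancestral cells on soft gel. At equal list lengths the list had 5 of 53 (9.43%, 3.13 to 20.7, beside 4.14% of all genes). Among the 54789 strongest peaks it had 0 of 25 (up to 13.7%, beside 1.80% of all genes). With a −log10 q of 10 in every list it had 5 of 37 (13.5%, 4.54 to 28.8, beside 3.02% of all genes). With so few regions the interval of the list is wide.

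Extracellular matrix genes had 20 of 253 (7.91%, 4.90 to 11.9), with COL5A1 holding 9 of the 20. THBS2, a matricellular thrombospondin, had 3 of 12, the strongest with 3.77, 4.01 and 6.10. Matrix protease genes had 4 of 87 (4.60%). TIMP2, a protease inhibitor, had 2 of 11, the stronger 4.95, 3.73 and 4.33, and MMP14, a membrane-bound collagenase, 1 of 4 with 2.403, 3.11 and 3.60. The AP-1 family had 2 of 45, at FOS (2.69, 2.76 and 2.498) and MAFF (2.03, 2.63 and 2.94).

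**Figure D5:**
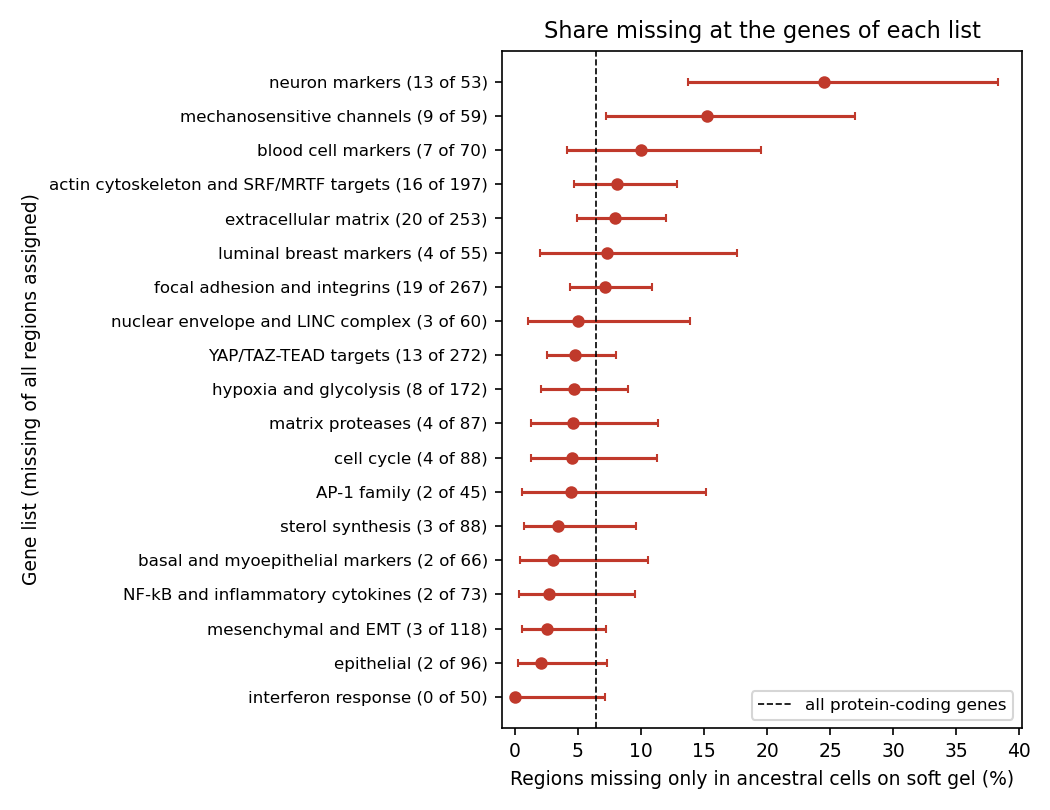
Percent of regions missing only in ancestral cells on soft gel among regions assigned to the genes of each list, with the counts beside each name; bars are 95% exact binomial intervals and the dashed line is the 6.42% of all protein-coding genes. Most intervals span the line, and the mechanosensitive channels (15.3%) and neuron markers (24.5%) lie above it.

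Genes that mark cell identity gave shares on both sides of the background. Mesenchymal and EMT genes had 3 of 118 regions missing (2.54%, 0.527 to 7.25), at SMAD3 and PRRX1. Epithelial genes had 2 of 96 (2.08%), at OVOL1 and CLDN3. Luminal breast genes had 4 of 55 (7.27%); ESR1, the estrogen receptor, had 2 of 7, and its stronger region had 4.76, 5.66 and 5.51, with the nearest peak of ancestral cells on soft gel 94052 bp away (chr6:151668404-151669246). Basal and myoepithelial genes had 2 of 66. Blood cell genes had 7 of 70 (10.0%, 4.12 to 19.5), with TBX21, a T-cell factor, at 2 of 3. Neuron genes had 13 of 53 (24.5%), of which RBFOX3 gave 12. At equal list lengths they had 6 of 46 (13.04%, 4.94 to 26.3, beside 4.14% of all genes). Among the 54789 strongest peaks they had 0 of 18 (up to 18.5%, beside 1.80% of all genes). With a −log10 q of 10 in every list they had 2 of 33 (6.06%, 0.743 to 20.2, beside 3.02%). Whether a few cells or all cells carry the peaks at genes of other cell types cannot be told apart in bulk libraries.

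Metabolic, inflammatory and growth genes were at or below the background. Hypoxia and glycolysis genes had 8 of 172 (4.65%, 2.03 to 8.96). HK1, a hexokinase, had 3 of 14, and SLC2A1, the glucose transporter GLUT1, 1 of 4 with 8.62, 3.25 and 3.97. Sterol synthesis genes had 3 of 88 (3.41%), at DHCR7 and INSIG1, and cell cycle genes 4 of 88 (4.55%), among them MKI67 with 4.48, 2.63 and 2.87. NF-kB and cytokine genes had 2 of 73, both at LIF, and the nuclear envelope list had 3 of 60. Interferon response genes had 0 of 50, which leaves a share of up to 7.11%. Over all 355 genes of the 19 lists, 133 of 2138 regions were missing (6.22%, 5.23 to 7.33), near the 6.42% of all genes.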

How the data were processed

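ATAC-seq was measured in 4 groups of 4 MDA-MB-231 samples, with 1 deposited peak list per group. Per the submitters' processing notes peaks are on build GRCh38, and MACS2 2.2.7.1 and the aligner Bowtie2 2.4.5 are named along with trimming by Trimmomatic 0.36 and the quality reports FastQC 0.11.4 and MultiQC 1.1. How libraries were combined and which MACS2 options were used is not given in the sources used here, and the read depth is unknown. Per the file headers, each peak has a pileup, which is a coverage signal not scaled between lists, a fold enrichment, which is a ratio to the background, and a −log10 q value. The authors computed all of these. Each list has its own background, about 16.3, 20.2, 13.5 and 12.6 fragments in the order ancestral soft, ancestral stiff, selected soft, selected stiff. In the peaks named above, equal pileups within a list always had equal fold enrichment and equal q. These columns are therefore not independent measures, and no correction for local background shows in them. Because the backgrounds differ, values are compared mainly within a list or between classes of regions. Where values of different lists stand side by side, as in the order of the lists, they are descriptions and not a measured change.

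Peaks were merged on 1 bp overlap, and a region took the strongest peak of each list. Peak numbers skipped in a list (1107 in ancestral cells on soft gel) mark stretches not analysed here. A region missing in a list was dropped where it overlapped such a stretch of that list. In every list the shortest stretch was longer than the widest listed peak. In the list order above these were 6392 against 5650 bp, 6699 against 5946, 9099 against 8443 and 8607 against 7950. Whether the skipped numbers were wide peaks was not tested. Regions went to the nearest protein-coding gene within 100 kb of their middle (19974 genes, RefSeq, GRCh38.p14); gene starts and promoter letters came from RefSeq windows, none on chromosome 8. All 355 list genes were found, 1 by an older symbol. The rule of membership was checked on simulated peaks. The scripts ran in Python 3.11.15 with scipy 1.17.1, pandas 2.3.3 and numpy 2.4.6, and figures were drawn with matplotlib 3.10.9.

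Genes were named by rule: the 10 regions with the highest lowest fold enrichment, the 10 genes with the most regions, list genes with a region within 1 kb of a start, and 2 genes per list with the most regions. Other names are marked as chosen after their values were seen. The members and lists were chosen with earlier results of these data known. Alternatives changed the merging, the q threshold, the list lengths, the handling of skipped numbers, the chromosomes and the distances.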

Additional observations from a re-analysis of the deposited data

How the results depend on the processing

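No paired analysis was possible because each group has 1 deposited list and no column carries a replicate; for the same reason no sample could be left out. Of 95 values recomputed under 14 settings, 60 stayed within the interval of the first value or, for counts, within 1.5 times it. The other 35 moved. Direction was not scored in this count. When peaks needed a −log10 q of 10 in each of the 4 lists, 1638 regions were missing only in ancestral cells on soft gel and 355 only in ancestral cells on stiff gel; the median fold enrichment in ancestral cells on stiff gel was 3.25, the share missing at strength 2 to 3 was 66.4%, 6.48% lay at starts, 100 start windows were touched and 47 regions were at list genes. With that threshold only in the 3 lists that hold a region, the count was 479, against 2146 for selected soft, 652 for selected stiff and 103 for ancestral stiff; the median was 3.96, the share at strength 2 to 3 11.2%, the share at starts 4.39%, the highest window 6.36%, with 19 start windows and 11 list regions. With 109578 peaks in every list there were 2703 regions, a median of 2.64, 20.05% missing at strength 2 to 3, 102 start windows and 83 list regions. With 54789 peaks the count was 771, against 2035 for selected soft, 892 for selected stiff and 741 for ancestral stiff, the median 7.96, 9.02% at starts, a highest window of 5.99%, 71 start windows and 13 list regions; no region of strength 2 to 3 was left. Merging across 500 bp gave 22.8% and absence judged at summits 26.1% at strength 2 to 3. Starts within 3 kb took in 10.6%. Within strength 2 to 3, an alternative added after seeing the data, the highest window was 50.6%. The order of the lists changed too: at the −log10 q of 10 the shares missing were 8.03% for selected cells on soft gel, 3.68% for selected cells on stiff gel, 2.82% for ancestral cells on soft gel and 0.626% for those on stiff gel. The share of the regions inside genes lay between 53.9% and 62.3% over the alternatives that changed the regions. In regions of all 4 lists it lay between 51.6% and 53.7%. With a −log10 q of 10 in the 3 lists that hold a region the shares were 53.9% and 52.3%. With 54789 peaks per list they were 56.9% and 53.7%.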

Other observations

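On chromosome X, outside the rule, 29 of 1291 regions with a peak in the other 3 lists were missing only in ancestral cells on soft gel, a share of 2.25% (1.51 to 3.21), below the 5.92% of chromosomes 1 to 22. There the list of selected cells on soft gel lacked 12.6% (182 of 1444), that of selected cells on stiff gel 3.66% and that of ancestral cells on stiff gel 0.473%.

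MicroRNA hairpins were rare under these regions. The regions touched 18 hairpins annotated by RefSeq, in 17 regions or 0.384% of them, against 0.414% of regions in all 4 lists. The share was 0.172% for regions missing only in ancestral cells on stiff gel (4 regions), 0.0413% for selected cells on soft gel (2) and 0.0329% for selected cells on stiff gel (1). MIR142, a microRNA gene of blood cells, MIR219A2, known from oligodendrocytes, and MIR1247 were among them; these names were chosen after the overlap was seen.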
